A study of Mus musculus with 106 samples.

Results

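Serpins are a family of proteins that mostly inhibit serine proteases, and they were followed here through 23 lists of ChIP-seq peaks and 4 lists of ATAC-seq regions from mouse liver. The members are the protein-coding genes whose symbol starts with Serpin, with Serpinc1 left out, and numbered 62 of 21887 protein-coding genes in the RefSeq annotation of GRCm38.p6, which is the mm10 build named in the submitters' processing notes. They comprised 23 Serpina genes in 1 cluster on chromosome 12, Serpina7 on chromosome X, 28 Serpinb genes (12 on chromosome 1 and 16 on chromosome 13) and 10 genes of clades d to i. A gene was counted as having a peak when the peak's centre lay in the gene body or within 10 kb of it. For ATAC-seq the percent of the body lying inside regions of gained accessibility was measured, and 25% or more was called covered.

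The livers came from wild-type (WT) mice and from Foxa2-KO mice of genotype Foxa2loxP/loxP;Alfp.Cre, in which Cre is driven by the Alfp element in the epithelial cells of the liver, so that other cells keep the Foxa2 gene. Age was given as 8 to 12 weeks, or as 3 months for the LXR and PPAR samples, whose strain was C57BL/6. Foxa2 was precipitated from WT liver only, in mice given vehicle, GW3965 or T09 (the LXR agonist T0901317), and in a separate experiment vehicle or the FXR agonist GW4064. FXR was precipitated from both genotypes with vehicle or GW4064, LXR from both with vehicle, an agonist labelled GW without a number, or T09, and PPAR from both with vehicle, GW3965, T09 or GW4064. Livers were taken 4 h after the ligand where the labels give a time. ATAC-seq regions were called with ligand over vehicle, for GW3965, T09 and GW4064 in WT liver and GW4064 in Foxa2-KO liver.

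Each group or comparison is 1 list. The labels give 1 sample to every Foxa2 group and to every LXR group of WT liver, 3 samples to the LXR groups of Foxa2-KO liver, 2 to those of FXR and of PPAR, and 2 or 3 to each arm of ATAC-seq. No difference between lists below therefore has a replicate check, and none was tested. The Foxa2 lists held 4348 entries with the vehicle of the LXR agonists, 21245 with GW3965, 25318 with T09, 7306 with the vehicle of GW4064 and 22666 with GW4064. The other ChIP lists ran from 110 to 22705 entries and the ATAC lists from 60528 to 82561. Counts are therefore set beside the percent of all genes that had a peak in the same list. The median gene body was 11045.5 bp for the members and 17169 bp for all genes and the counts are not matched for this. As a check of the labelled tissue, Foxa2 peaks of at least 1 list were found at 10 of 10 hepatocyte marker genes, against 1 of 8 for Kupffer cells, 3 of 8 for stellate cells, 7 of 8 for sinusoidal endothelium, 2 of 6 for cholangiocytes and 55.9% of all genes.

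Serpins trap their target protease by an irreversible change of shape that uses up both proteins. The hepatocyte secretes many of them into plasma, including the elastase inhibitor α1-antitrypsin (Serpina1), the plasmin inhibitor α2-antiplasmin (Serpinf2) and the thrombin inhibitor heparin cofactor II (Serpind1), and some family members carry hormones and inhibit nothing. Serpinb proteins mostly stay inside the cell, where they guard against leaked granule and lysosomal proteases. Foxa2 is a forkhead factor that binds liver enhancers and promoters, while FXR, LXR and PPAR are nuclear receptors for bile acids, oxysterols and fatty acids.

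Foxa2 peaks lay over the Serpina cluster more densely than over the rest of the family. In the vehicle list of the LXR agonist experiment 12 of the 23 cluster genes had a Foxa2 peak (52.2%), against 3 of the 39 other members (7.69%) and 12.1% of all genes. With GW3965 the count was 16 of 23 in the cluster and 11 of 39 elsewhere, against 36.9% of all genes. With T09 it was again 16 and 11, against 39.2%. In the GW4064 experiment the cluster counted 8 genes with vehicle and 17 with GW4064, and the other members 4 and 12, against 17.8% and 38.8% of all genes. In every one of the 5 lists the share was above the background in the cluster and below it among the 39 other members. These 39 were not alike. The Serpinb genes counted 1, 4, 7, 2 and 7 of 28 in this list order, below the background in each list. The genes of clades d to i counted 2, 6, 3, 2 and 4 of 10, below the background only with T09. In at least 1 of the 5 lists a peak was found at 13 of 28 Serpinb genes and 7 of 10 genes of clades d to i. Pooled over the 5 lists, 38 of 62 members had a Foxa2 peak (61.3%, against 55.9% of all genes), 17 in the cluster and 21 elsewhere. Within 5 kb the order of these shares turned, with 29 members (46.8%) against 48.7% of all genes.

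**Figure D1:**
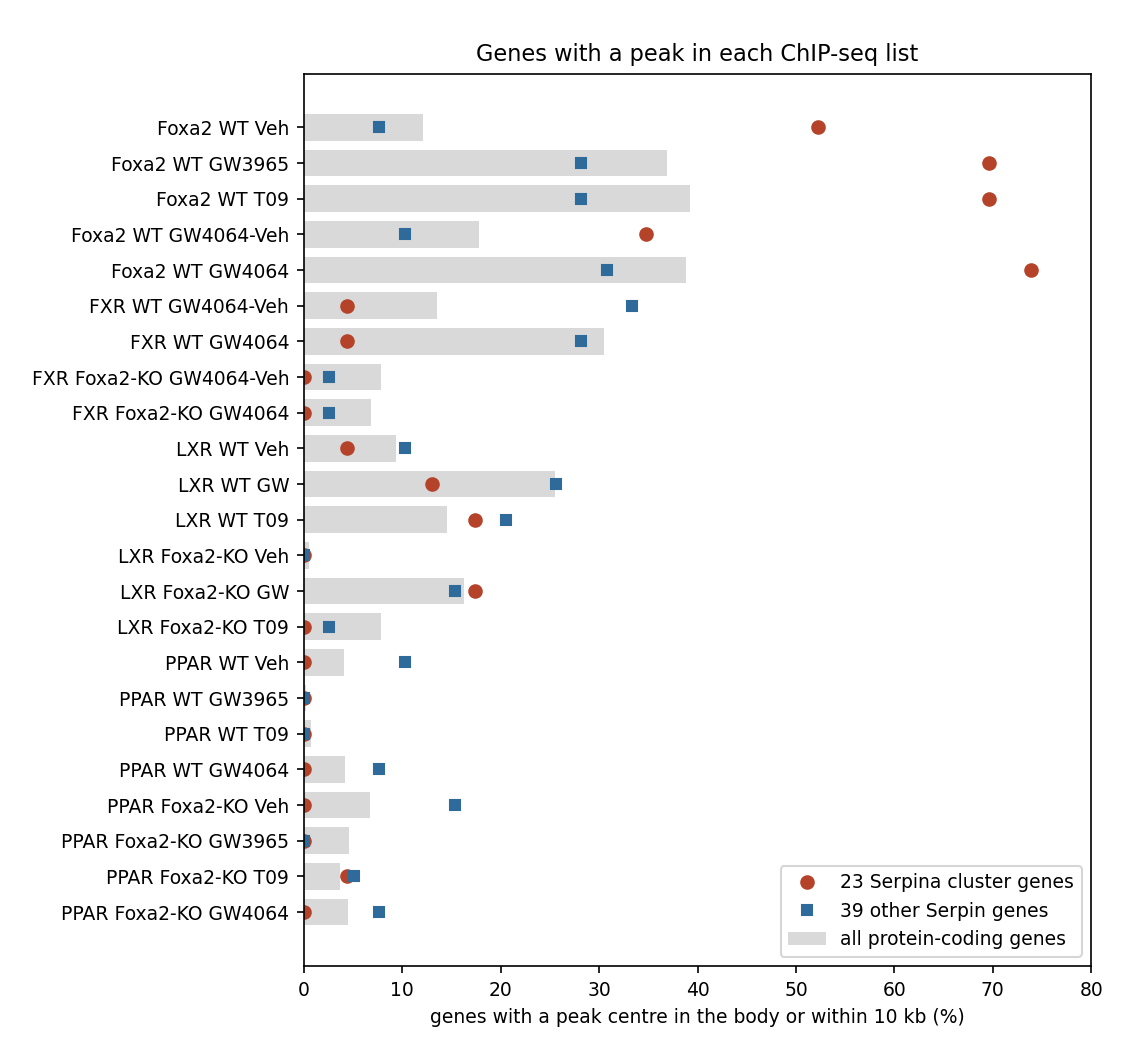
Percent of genes with a peak centre in the body or within 10 kb (x axis) in each of the 23 ChIP-seq lists (y axis), for all protein-coding genes (grey bars), the 23 Serpina cluster genes (circles) and the 39 other members (squares). In the 5 Foxa2 lists the circles sit between 34.8% and 73.9% and the squares between 7.69% and 30.8%, while in the WT FXR lists the circles are at 4.35% and the squares at 28.2% and 33.3%.

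Neighbouring genes share peaks, so the cluster was also described by its length. It spans 797.7 kb from Serpina10 to Serpina3n (chr12:103616675-104414334) and held 13 Foxa2 peaks with the vehicle of the LXR agonists, 42 with GW3965, 31 with T09, 9 with the vehicle of GW4064 and 29 with GW4064. Per 100 kb this was 1.63 peaks in the first vehicle list against 0.161 over all chromosomes, each taken from its first to its last protein-coding gene, a ratio of 10.1, and the ratio was 6.68, 4.14, 4.17 and 4.33 in the other lists. The Serpinb genes of chromosome 1 (747.8 kb) held 0, 0, 3, 1 and 2 Foxa2 peaks in the same lists, at 0 to 0.494 times the genome's density. Those of chromosome 13 (1161 kb) held 1, 4, 9, 2 and 10, at 0.437 to 1.03 times that density. The 3 serpin clusters thus differed in Foxa2 peaks by more than their lengths.

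Foxa2 sites in the cluster also came back in more lists. Overlapping peaks of the 5 lists at members merged into 77 sites, 39 of them at cluster genes and 38 at other members. Of the 39, 14 were in at least 4 lists and 12 (30.8%) in only 1 list. Of the 38, 6 were in at least 4 lists and 27 (71.1%) in only 1. At Serpinb genes 14 of 18 sites were in a single list, and none was in all 5. Counted as peaks, 12 of 12, 27 of 36, 24 of 26, 8 of 8 and 24 of 25 cluster peaks overlapped another Foxa2 list, in the list order above. For all members the counts were 16 of 16, 38 of 55, 34 of 45, 13 of 15 and 35 of 44. Of all peaks of these lists 99.4%, 67.2%, 51.1%, 69.8% and 51.8% did. The share for merged sites of the whole genome was not computed.

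**Figure D2:**
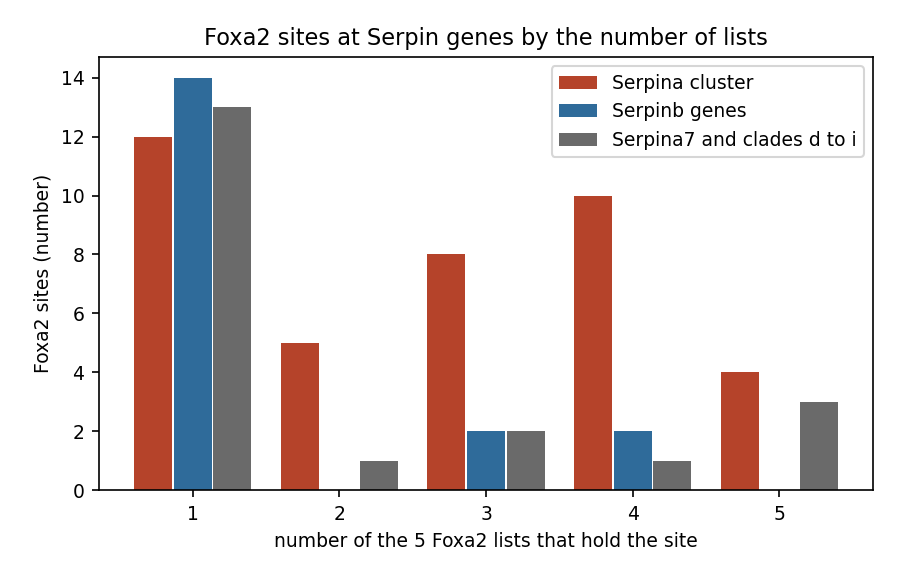
Number of Foxa2 sites (y axis) by how many of the 5 Foxa2 lists hold the site (x axis), for the Serpina cluster, the Serpinb genes, and Serpina7 with clades d to i. The cluster has 10 sites in 4 lists and 4 in 5 lists, and the Serpinb genes have 14 sites in 1 list and 2 in 4.

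Single sites are given with their entry, which is the place of the peak in its list. Serpina6 encodes corticosteroid-binding globulin, the carrier of glucocorticoids in blood. A site at chr12:103658969-103659587, outside the Serpina6 body and within 10 kb of both Serpina6 and Serpina16, was entry 141 with the vehicle of the LXR agonists, 103 with GW3965, 191 with T09, 124 with the vehicle of GW4064 and 201 with GW4064. It was thus among the first 201 of 4348 to 25318 entries in all 5 lists. Serpina6 had 4 further sites, at chr12:103655206-103655568 in 4 lists, chr12:103657068-103657397 in 3, chr12:103660129-103660729 in 2 and chr12:103662136-103662352 in 1.

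Serpina7, which encodes thyroxine-binding globulin and sits alone on chromosome X, had a site at chrX:139089749-139090067, -4672 bp from its start, as entry 3446 with GW3965, 3674 with T09 and 6716 with GW4064. Neither vehicle list held a peak there. A weaker entry at its start (centre at -110 bp) was in the GW3965 list only, as entry 20461.

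Serpina11 and Serpina9 share a site that had the earliest entry of the family with GW3965 and with GW4064, while the Serpina6 site came earlier in the other 3 Foxa2 lists. Serpina9 is known as centerin, a serpin of germinal centre B cells, and Serpina11 encodes a further clade a serpin. The site at chr12:103989002-103989624, centred 630 bp inside the Serpina11 start, was entry 79 with GW3965, 155 with GW4064, 376 with T09, 206 with the vehicle of the LXR agonists and 264 with the vehicle of GW4064. In the body of Serpina9 another site, chr12:104002668-104003144, was in 4 lists at entries 1806 to 4298 and absent with the vehicle of GW4064. Serpina10, the inhibitor that acts on factor Xa with protein Z, had 1 site in all 5 lists, at chr12:103635825-103636227, with entries 4166, 2485, 4158, 782 and 2350 in the order given above.

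The Serpina1 genes encode α1-antitrypsin, which humans make from 1 gene and C57BL/6 mice from the near-identical copies Serpina1a to Serpina1e. Foxa2 peaks were centred within 500 bp of the start of 4 of the 5 copies, and covered the start itself at Serpina1b, Serpina1c and Serpina1d. The site at Serpina1e lay upstream of its start. At Serpina1b the peak (centre -213 bp from the start) was in 4 lists, as entry 3200 with GW3965, 10389 with T09, 1931 with the vehicle of GW4064 and 1335 with GW4064. At Serpina1c (-188 bp) it was in 4 lists, as entry 2062 with the vehicle of the LXR agonists, 5196 with GW3965, 2305 with T09 and 1291 with GW4064. At Serpina1d (-105 bp) it was in the 3 ligand lists at entries 8234 to 13409, and at Serpina1e (-296 bp) in 3 lists at entries 2182 to 12644. Serpina1e had in addition a wide site at chr12:103961437-103962602, -5122 bp from its start, that was in all 5 lists, as entry 314, 199, 587, 3750 and 590. Serpina1a had no Foxa2 peak, and no peak of any antibody, in the 23 lists.

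The 250 bases before each of these start sites (RefSeq, GRCm38.p6, given 5′ to 3′ on the gene's strand) show how alike the copies are. Capitals mark the forkhead motif, searched on both strands as TGTTTAC or as TGTTTGC or as TATTTAC or as TATTTGC (on the same strand matches to these cannot overlap). They are shown because the copy without a peak carries the same motif as those with one.
Serpina1a: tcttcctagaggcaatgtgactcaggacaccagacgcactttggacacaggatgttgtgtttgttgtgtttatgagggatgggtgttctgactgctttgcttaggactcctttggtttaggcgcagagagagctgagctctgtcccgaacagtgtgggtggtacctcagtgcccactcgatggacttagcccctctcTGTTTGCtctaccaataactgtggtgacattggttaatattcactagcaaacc
Serpina1b: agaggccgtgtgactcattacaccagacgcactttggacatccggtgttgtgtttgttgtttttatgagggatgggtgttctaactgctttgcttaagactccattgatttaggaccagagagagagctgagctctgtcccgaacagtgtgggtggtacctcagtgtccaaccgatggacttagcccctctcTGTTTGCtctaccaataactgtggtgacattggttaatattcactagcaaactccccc
Serpina1c: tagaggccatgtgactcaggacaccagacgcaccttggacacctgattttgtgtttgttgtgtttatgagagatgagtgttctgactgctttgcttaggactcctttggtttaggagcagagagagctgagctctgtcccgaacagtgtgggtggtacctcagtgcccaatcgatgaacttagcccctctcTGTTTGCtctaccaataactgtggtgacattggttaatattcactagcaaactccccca
Serpina1d: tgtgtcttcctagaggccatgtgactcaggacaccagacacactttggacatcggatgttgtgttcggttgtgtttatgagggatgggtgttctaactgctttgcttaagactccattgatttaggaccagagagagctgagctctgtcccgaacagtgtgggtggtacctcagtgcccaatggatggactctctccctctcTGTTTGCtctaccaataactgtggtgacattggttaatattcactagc
Serpina1e: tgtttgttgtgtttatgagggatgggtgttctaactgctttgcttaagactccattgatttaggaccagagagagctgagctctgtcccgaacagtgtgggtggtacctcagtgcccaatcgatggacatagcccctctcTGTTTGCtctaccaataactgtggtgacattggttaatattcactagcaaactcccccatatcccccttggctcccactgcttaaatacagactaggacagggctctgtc
All 5 are read on the minus strand of chromosome 12, at chr12:103863620-103863869 for Serpina1a, chr12:103738190-103738439 for Serpina1b, chr12:103904951-103905200 for Serpina1c, chr12:103773634-103773883 for Serpina1d and chr12:103956898-103957147 for Serpina1e. Each held TGTTTGC once, starting at base -53 in Serpina1a, -58 in Serpina1b, -59 in Serpina1c, -48 in Serpina1d and -110 in Serpina1e. At Serpina1e peaks of 2 lists reached the printed bases. The site there (chr12:103957033-103957353) lies upstream of the motif, so no Foxa2 peak covered it. Over the aligned stretch the pairs were 91.6% to 97.0% identical, and Serpina1a was 95.5% identical to Serpina1c and 91.9% to Serpina1b. How reads that match several copies were placed is not given in the sources used here, so a peak at one copy and none at another is uncertain, and the part of mapping in this was not tested.

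Promoters with a Foxa2 peak were not limited to the cluster. Of 53 members with a RefSeq promoter window (250 bases before to 50 after a start), 10 had a Foxa2 peak of at least 1 list overlapping it, against 8.41% of all genes with such a window. They were Serpina11, Serpina1b, Serpina1c, Serpina1d, Serpina1e, Serpina3n and Serpina7 of clade a, and Serpinb9, Serpind1 and Serpinf2. The start with a peak at Serpinb9 lies inside its gene body. The motif was found in the first 250 bases of 14 of the 62 windows of these 53 members (22.6%) and in 10.4% of the windows of all protein-coding genes, or 23.1% of those with a Foxa2 peak. The Serpina1 copies give 5 of the 14, and share their sequence. Of the 10 members with a promoter peak, 8 held the motif in a promoter window, though not always under the peak, as at Serpina1e. Among the 8 are Serpina1b, Serpina1c, Serpina1d and Serpina1e, which share their sequence. These are counts of genes, so the 23.1% of windows is not their background. The motif was not found in the promoters of Serpina3n and Serpina7.

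Outside the cluster only Serpinf2 and Serpind1 had a Foxa2 peak in all 5 lists, as 9.98% of all genes and 6 genes of the cluster did. The other genes of clades d to i had one in 2 lists at most (Serpine2 and Serping1). At Serpinf2 a peak over the promoter (chr11:75439454-75439756, centre -104 bp) was entry 2540, 2962, 7588, 2687 and 1874 in the 5 lists. A further site at -4458 bp was entry 1173, 2889, 3007, 5537 and 1209, and one at 525 bp inside the gene was in 4 lists. At Serpind1 the promoter peak (chr16:17331217-17331482, centre -22 bp) was entry 3663, 4182, 5238, 2965 and 2034. Both promoters, with that of Serpina11 (peak only with GW3965, entry 9626, centre -82 bp), are shown because the peak lies over a motif that differs from the one in the Serpina1 copies.
Serpinf2: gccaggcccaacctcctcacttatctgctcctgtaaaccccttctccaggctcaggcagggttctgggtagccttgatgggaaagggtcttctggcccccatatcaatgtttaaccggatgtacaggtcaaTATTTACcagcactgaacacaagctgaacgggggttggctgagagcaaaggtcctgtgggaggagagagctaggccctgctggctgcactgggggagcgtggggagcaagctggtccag
Serpind1: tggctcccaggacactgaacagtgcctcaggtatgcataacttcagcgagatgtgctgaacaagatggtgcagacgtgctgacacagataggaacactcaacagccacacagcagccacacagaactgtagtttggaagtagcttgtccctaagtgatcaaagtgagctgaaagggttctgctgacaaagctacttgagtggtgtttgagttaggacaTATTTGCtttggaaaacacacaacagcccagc
Serpina11: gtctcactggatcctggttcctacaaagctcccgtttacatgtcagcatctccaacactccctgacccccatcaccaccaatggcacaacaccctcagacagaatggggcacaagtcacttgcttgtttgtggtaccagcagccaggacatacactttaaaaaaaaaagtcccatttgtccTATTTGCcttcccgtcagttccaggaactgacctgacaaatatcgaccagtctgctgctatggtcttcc
Serpinf2 (chr11:75439502-75439751, minus strand) held TATTTAC from base -119, Serpind1 (chr16:17331121-17331370, plus strand) TATTTGC from base -32 and Serpina11 (chr12:103989958-103990207, minus strand) TATTTGC from base -69. Such a match describes the letters only.

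The Serpina3 genes, relatives of human α1-antichymotrypsin, an inhibitor of cathepsin G and a protein of the acute phase, differed along the cluster. Of these 10 genes, 5 had a Foxa2 peak. Serpina3a at one end and Serpina3k, Serpina3m and Serpina3n at the other had peaks in 3 or 4 lists. Between them Serpina3b, Serpina3c, Serpina3f, Serpina3g and Serpina3j had none, and Serpina3i had a single peak with GW4064 at entry 8575. The longest stretch of the cluster without a Foxa2 peak of any list, 106.3 kb at chr12:104169542-104275867, holds Serpina3f, Serpina3g and Serpina3i. These genes are copies of each other as well, and the limit on mapping given for Serpina1 holds for them.

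**Figure D3:**
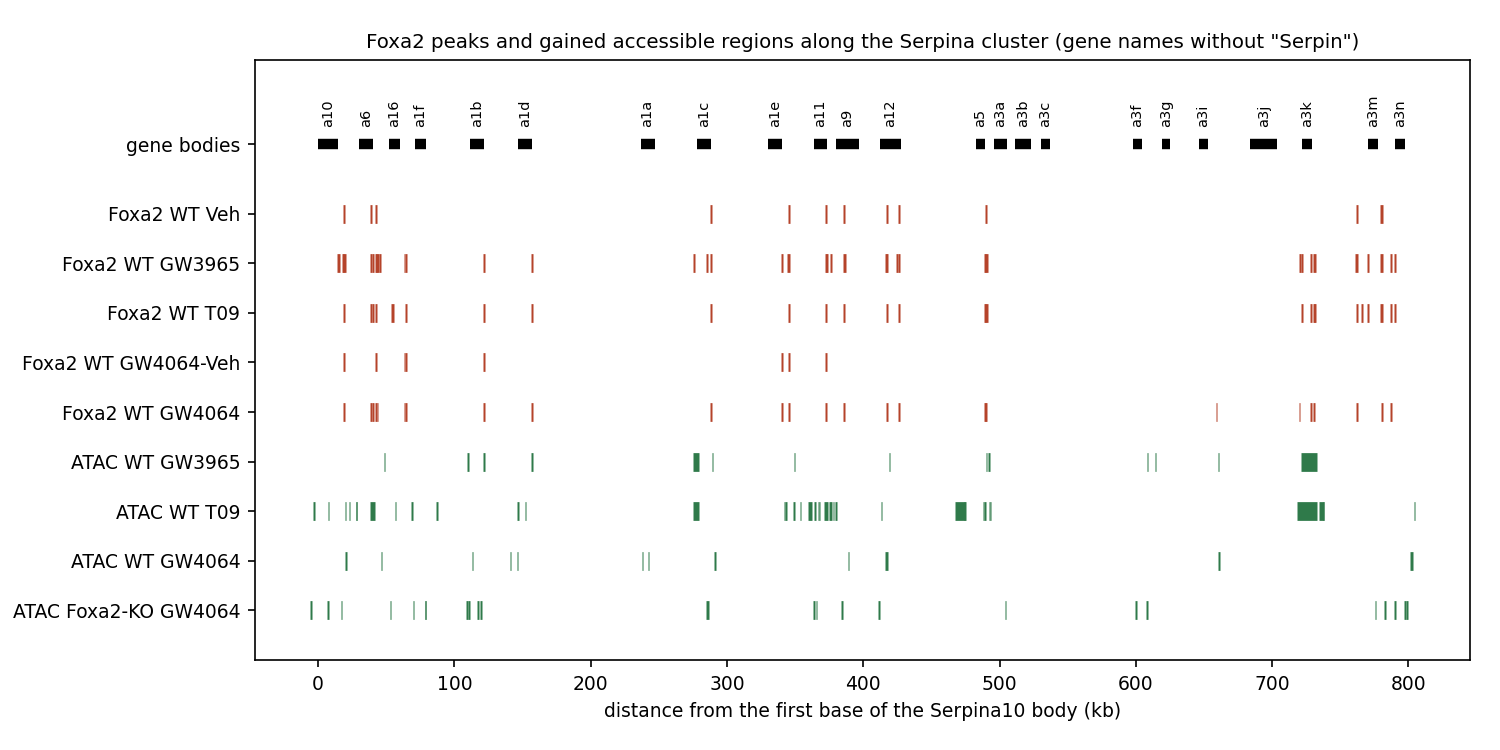
Foxa2 peaks (red) and regions of gained accessibility (green) within 10 kb of the 23 cluster genes (black bars), by list (y axis), against distance in kb from the first base of Serpina10 (x axis). Narrow marks are widened to be visible. Foxa2 marks are found at both ends and in the middle but hardly between Serpina3b and Serpina3j, and wide green blocks stand over Serpina3k with GW3965 and T09.

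Serpina3k, one of the main plasma serpins of mouse liver (contrapsin), was the member with the widest gain of accessibility. Its body (chr12:104338486-104345739) lay 100% inside a gained region with GW3965 and 100% with T09, and 0% with GW4064 in WT or in Foxa2-KO liver. It was the only covered member in either LXR agonist comparison, 1 of 62, where 2.26% of all genes were covered with GW3965 and 1.54% with T09. With GW4064 no member reached 25%, against 1.94% of all genes in WT and 1.66% in Foxa2-KO liver. Full cover with both LXR agonists was found for 7 genes of 21887 (Apoa1, Apoc3, Dbp, H4c2, Serpina3k, Urah and Zbtb45), and 30 genes (0.137%) were covered with both agonists while at 0% with GW4064 in both genotypes. In the authors' deposited table the GW3965 region, chr12:104338053-104349007, was entry 173 with a fold of 1.136 over vehicle and q = 5.31e-13. The T09 region in the authors' deposited table, chr12:104335713-104349320, was entry 41 with a fold of 1.276 and q = 4.39e-59. Both regions were long and of low fold. A further T09 region downstream of it, chr12:104351567-104354211, had a fold of 2.747 as entry 57 of the authors' deposited table.

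Foxa2 peaks lay within the same stretch. Serpina3k had 4 Foxa2 peaks with GW3965, 4 with T09, 3 with GW4064 and 0 in either vehicle list. The site inside its body, chr12:104345263-104345695, was entry 3682, 8510 and 7928 in the 3 ligand lists, and the one beyond it, chr12:104346922-104348366, was entry 852, 16850 and 5669. All 4 of its Foxa2 sites overlapped the T09 region, and 3 of them the GW3965 region. Ligand lists are longer than vehicle lists, so equal numbers of first entries were compared. In the first 4348 entries Serpina3k had a peak with GW3965 but not with T09, and in the first 7306 entries it had one with GW4064. In this comparison 15 members had a peak with GW3965 and 15 with its vehicle, 16 with T09, and 17 with GW4064 against 12 with its vehicle, so most of the rise in counts with the LXR agonists was absent at equal length. The background at equal length was 12.0%, 11.8% and 18.3% of all genes. Peaks in all 3 ligand lists and in neither vehicle list were found for 4 members (Serpina1d, Serpina3k, Serpina7 and Serpinb6b), against 8.85% of all genes.

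Other members were covered in part. With T09 Serpina11 lay at 23.4%, just under the 25% limit, Serpina6 at 22.1%, Serpinf2 at 19.7% and Serpina5, the protein C inhibitor, at 11%. All 4 were at 0% with GW3965, and of them Serpinf2 alone had cover in WT liver with GW4064 (21.2%). With GW3965 the next highest values after Serpina3k were Serpinb6b at 11.7% and Serpinb6a at 11.4%. In the authors' deposited table the Serpinb6b region was entry 313 with a fold of 1.626, and the earliest at Serpinb6a, chr13:33964205-33968247, was entry 405 with a fold of 1.434. That region overlies a Foxa2 site found in 4 lists (chr13:33966035-33966539). In Foxa2-KO liver with GW4064 the highest values were Serpina3n at 15.3% and Serpina1c at 13.2%, both 0% in WT liver with GW4064. Serpina12, which encodes the adipokine vaspin, was covered at 7.36% in WT liver with GW4064, 2.75% with GW3965, 1.06% with T09 and 0% in Foxa2-KO liver. At a limit of 10% the counts were 3 members with GW3965 and 5 with T09, against 5.69% and 3.93% of all genes, and 1 and 2 with GW4064 in WT and Foxa2-KO liver, against 5.35% and 4.13%. At 50% they were 1 with GW3965, 1 with T09 and 0 with GW4064 in either genotype, against 0.955%, 0.681%, 0.681% and 0.722% of all genes.

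Gained regions of any extent were also counted. Some part of the body was covered for 19 members with GW3965, 24 with T09, and 19 and 29 with GW4064 in WT and Foxa2-KO liver, against 43.6%, 43.2%, 43.8% and 48.0% of all genes. A region centred in the gene or within 10 kb was found for 34, 31, 31 and 37 members, against 60.8%, 61.4%, 62.1% and 68.0%. The members' shorter bodies were not matched.

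**Figure D4:**
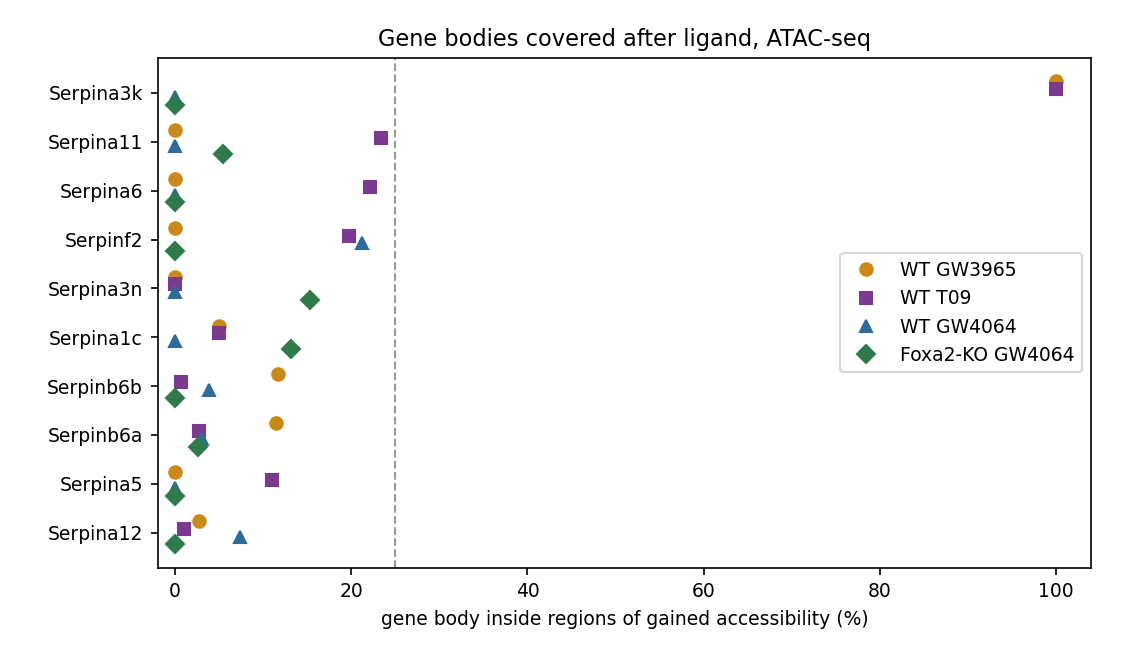
Percent of the gene body inside regions of gained accessibility (x axis) for the 10 members with the largest value (y axis), in the 4 ATAC-seq comparisons of ligand with vehicle. The dashed line marks the 25% limit, which Serpina3k passes with GW3965 and T09 at 100% and no other member passes.

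Overlaps of Foxa2 sites with gained regions were also counted. Regions gained with T09 overlapped 11 of the 39 Foxa2 sites of the cluster and none of the 38 elsewhere. All Foxa2 sites of Serpina3k lay in a single T09 region, and sites at Serpina6 and at Serpina11 also shared a region. These overlaps are therefore not independent. Regions gained with GW3965 overlapped 7 in the cluster and 9 elsewhere, among them sites at Serpina1b, Serpina1d, Serpinf2, Serpind1 and Serping1. GW4064 regions overlapped 3 Foxa2 sites of all members in WT liver and 4 in Foxa2-KO liver. The share of all Foxa2 sites that overlap gained regions was not computed, so these counts have no background.

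Binding of the nuclear receptors had another distribution. FXR, the bile acid receptor, had peaks at 14 members in WT liver with vehicle and at 12 with GW4064, against 13.5% and 30.5% of all genes. Of the 22 members in either list (35.5%, against 35.9% of all genes), 2 belonged to the Serpina cluster and 14 were Serpinb genes. The cluster genes were Serpina10 with vehicle, by a peak of 26 bp at entry 7706 of 7883, and Serpina16 with GW4064, by a peak of 257 bp at entry 20226 of 22705. With vehicle the others were Serpinb12, Serpinb13, Serpinb3a, Serpinb11, Serpinb7, Serpinb10, Serpinb1c, Serpinb9, Serpinb9d and Serpinb6d, with Serpine2 (protease nexin-1), Serpind1 and Serping1 (the C1 inhibitor). With GW4064 they were Serpinb5, Serpinb3c, Serpinb11, Serpinb9, Serpinb9b, Serpinb9c and Serpinb6d, with Serpine2, Serpine3, Serpini1 (neuroserpin) and Serpini2. Serpinb11, Serpinb6d, Serpinb9 and Serpine2 were in both, against 8.07% of all genes, but through different peaks.

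None of the 30 FXR peaks at members overlapped a peak of another FXR list, where 2.35% to 6.33% of all peaks of these lists did, and none overlapped a Foxa2 peak. None was among the first 1000 entries of its list: the earliest was entry 1163, a peak of 4 bp at Serpinb1c. In Foxa2-KO liver Serpinb6d had an FXR peak with vehicle (448 bp, entry 2976, q = 0.0144) and Serpinb9c with GW4064 (171 bp, entry 2459, q = 0.0105), against 7.84% and 6.8% of all genes. Both genes had FXR peaks in WT liver as well, at other positions.

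LXR peaks lay mostly at Serpinb genes. In WT liver 5 members had one with vehicle, 13 with GW and 12 with T09, against 9.38%, 25.5% and 14.6% of all genes. They lay at 18 Serpinb genes, 8 genes of the cluster and Serpini1, 27 members in all (43.5%, against 36.3% of all genes). Over the Serpinb span of chromosome 13 there were 6 LXR peaks with vehicle, 21 with GW and 12 with T09, at 2.93, 3.44 and 3.46 times the density over all chromosomes. Over the Serpinb span of chromosome 1 the ratio was 0.758, 1.02 and 1.79, and over the Serpina cluster 0, 0.477 and 1.68. Whether the limit on mapping given for Serpina1 holds for the Serpinb genes was not tested. With vehicle the members with an LXR peak were Serpina3n, Serpinb10, Serpinb6d, Serpinb9d and Serpinb9e. With GW they were Serpina11, Serpina9, Serpina3c, Serpinb13, Serpinb3a, Serpinb8, Serpinb9, Serpinb9b, Serpinb1b, Serpinb9c, Serpinb6c, Serpinb6a and Serpini1. With T09 they were Serpina16, Serpina1f, Serpina3a, Serpina5, Serpinb2, Serpinb3c, Serpinb7, Serpinb9, Serpinb9c, Serpinb9g, Serpinb6e and Serpinb6a. Serpinb6a, Serpinb9 and Serpinb9c were listed with both agonists, against 7.17% of all genes.

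A single LXR site came back. In the body of Serpinb6a, an intracellular inhibitor of cathepsin G and related proteases, a peak at chr13:33931747-33931883 with GW (entry 3200, q = 0.0219) overlapped one at chr13:33931758-33931869 with T09 (entry 1216, q = 0.0268). These were 2 of 51 LXR peaks at members, and the others were found in 1 list each. Of all peaks of the LXR lists with member peaks, 4.24% to 13.8% were found in another LXR list. Across the LXR lists, the authors' q at members ran from 0.0189 (Serpinb8, GW, 13 bp) to 0.049 (Serpinb6a, GW). An LXR peak with vehicle near Serpinb9e, entry 346, was the only receptor peak of the family that overlapped a Foxa2 peak, one with T09 at chr13:33243519-33243869. Of all FXR peaks 1.66% to 4.31% overlapped a Foxa2 peak, and of all peaks of the LXR lists with member peaks 2.2% to 6.11%.

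In Foxa2-KO liver LXR peaks were found at 0 members with vehicle (0.489% of all genes), 10 with GW (16.3%) and 1 with T09 (7.85%). Over the Serpinb span of chromosome 13 their density was 0, 1.86 and 0 times that over all chromosomes. With GW the cluster gave 4, Serpina10, Serpina11, Serpina9 and Serpina1f, and the rest Serpinb8, Serpinb6a, Serpinb6c, Serpinb6e, Serping1 and Serpini1. The peak that Serpina11 and Serpina9 share, chr12:103990415-103990470, was entry 3995 with q = 0.0358, overlapped a region gained with T09 in WT liver, and did not overlap an LXR peak of WT liver. With T09 the member was Serpinb3a (entry 513, q = 0.0429). The WT and Foxa2-KO lists differ in length, in their number of samples and in the false discovery limit that the submitters name for them, which is stricter for WT. The q-values present end near 0.05 in both. The FXR lists of Foxa2-KO liver end at q = 0.015, and those of WT liver give no q. The difference between genotypes was not tested.

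PPAR peaks were found at 5 members in WT liver and 8 in Foxa2-KO liver, against 8.0% and 14.1% of all genes. In WT liver all 5 were Serpinb genes of chromosome 13: Serpinb9b, Serpinb9g, Serpinb6a and Serpinb6c with vehicle (4.12% of all genes), and Serpinb9b, Serpinb6a and Serpinb6b with GW4064 (4.23%). Their span held 6 PPAR peaks with vehicle and 4 with GW4064, at 7.17 and 4.78 times the density over all chromosomes. Over the Serpinb span of chromosome 1 these ratios were 1.86 and 0. The earliest entry was a peak of 147 bp in the Serpinb6b body at entry 174 with q = 0.0339. With GW3965 and T09 no member was listed, against 0.274% and 0.722% of all genes, in lists of 110 and 373 entries. In Foxa2-KO liver 6 were listed with vehicle (Serpinb1b, Serpinb6a, Serpinb6c, Serpinb9, Serpinb9b and Serpinh1, the collagen chaperone), 0 with GW3965, 3 with T09 (Serpina3f, Serpinb6a and Serpinb6c) and 3 with GW4064 (Serpinb10, Serpinb9 and Serpinb9b), against 6.73%, 4.56%, 3.64% and 4.54% of all genes. Over the Serpinb span of chromosome 13 the density ratio was 3.47, 0, 1.32 and 0.896 in these lists. None of the 15 PPAR peaks at members overlapped a peak of another PPAR list, where 12.3% to 22.8% of all peaks of the lists with member peaks did. One, with vehicle in WT liver at chr13:33907893-33907971, overlapped an LXR peak of Foxa2-KO liver with GW beside Serpinb6c (chr13:33907833-33908029).

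**Figure D5:**
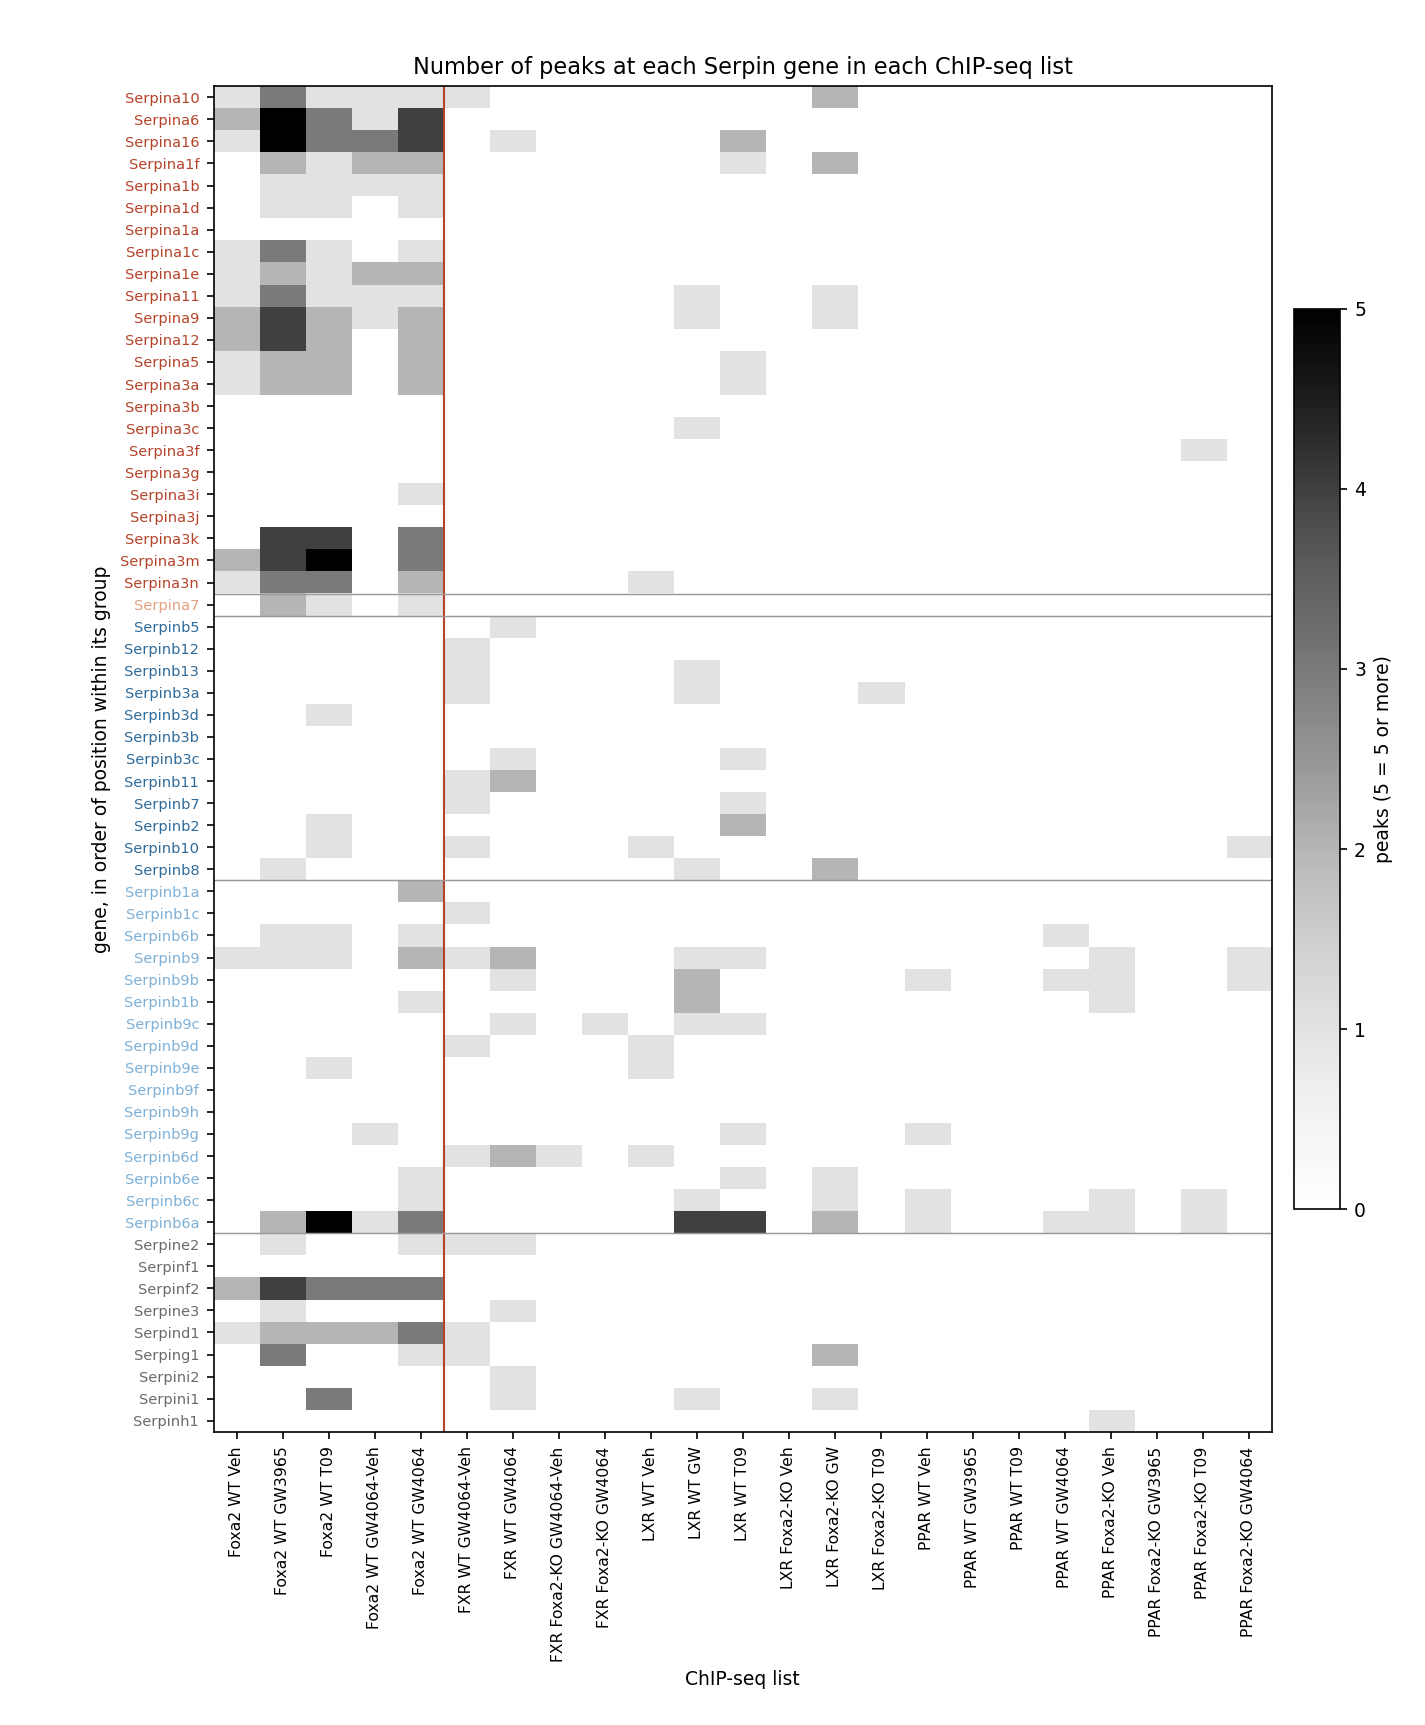
Number of peaks (shade, 0 to 5 or more) at each of the 62 members except 1 that is not shown (rows, grouped as Serpina cluster, Serpina7, Serpinb of chromosome 1, Serpinb of chromosome 13 and clades d to i, each in order of position) in each of the 23 ChIP-seq lists (columns). Foxa2 peaks, left of the red line, are found in 17 of the 23 rows of the cluster and in all 5 lists at Serpinf2 and Serpind1, while receptor peaks are mostly single and most frequent among Serpinb rows, with Serpinb6a in 11 lists.

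The receptor peaks of the family were narrow. Over FXR, LXR and PPAR there were 96 at members, with a median width of 60.5 bp (1 to 448 bp), and 21 were 20 bp wide or less. Whole lists of these receptors held narrow peaks as well. For FXR in WT liver the median was 58 bp with GW4064, against 90.5 bp at members, and 54 bp with vehicle, against 51.5 bp. For LXR in WT liver with GW it was 39 bp, against 50 bp at members.

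The members with peaks in the most lists, Serpinb6a and Serpinb9, were Serpinb genes of chromosome 13. Each had a Foxa2 site found in 4 lists. Apart from the LXR site of Serpinb6a given above, each of their receptor peaks was in 1 list of its antibody. Serpinb6a was in 11 of the 23 lists (4 Foxa2, 3 LXR and 4 PPAR), with a body of 84877 bp against the family's median of 11045.5 bp. Serpinb9, an inhibitor of granzyme B, was in 10 (4 Foxa2, 2 FXR, 2 LXR and 2 PPAR). Its Foxa2 site at chr13:33004480-33004893 lay over a RefSeq start inside the gene body (chr13:32997061-33017955), centred 145 bp past that start. This site was entry 2474 with the vehicle of the LXR agonists, 2998 with GW3965, 2861 with T09 and 2741 with GW4064. Serpina11, Serpina10, Serpina9 and Serpina16 were in 7 lists each, 5 of them Foxa2. Serpind1, Serpinb9b, Serpinb6c and Serpina1f were in 6, and Serpina6 and Serpinf2 in 5, all 5 of them Foxa2. Serpinb9b had 0 Foxa2, 1 FXR, 1 LXR and 4 PPAR lists, and Serpinb6c 1 Foxa2, 0 FXR, 2 LXR and 3 PPAR lists.

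Some members had little or nothing. No peak of any antibody was found at 8 of 62, against 20% of all genes: Serpina1a, Serpina3b, Serpina3g, Serpina3j, Serpinb3b, Serpinb9f, Serpinb9h and Serpinf1, the anti-angiogenic factor PEDF next to Serpinf2. Serpinh1 had no Foxa2 peak, and Serping1 had 3 Foxa2 peaks with GW3965 and 1 with GW4064, at entries 9771 to 15262.

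The proteases that serpins meet were followed as the other side of the pathway. Of 26 such genes, 9, 16, 15, 9 and 16 had a Foxa2 peak in the 5 lists in the order used above, against 12.1%, 36.9%, 39.2%, 17.8% and 38.8% of all genes, and 9 had one in all 5, against 9.98%: the coagulation factors F2, F7, F10 and F11, Klkb1 (plasma kallikrein), Plg (plasminogen), Habp2, Masp1 and Tmprss6. Of the granule proteases of blood cells, Ctsg, Cma1 and Gzmb had 0 lists, and Elane and Prtn3, whose bodies neighbour each other, had 3. The remaining proteases spanned the same range. F12, Hgfac, Plau and Prss1 had 0 lists, Ctsl, Ctss and Plat 1, C1ra, C1s1, Masp2 and Hpn 2, and F9 3. FXR peaks in WT liver were found at 2 of 26 (Habp2 and Ctss), LXR peaks at 7 and PPAR peaks at 0, against 35.9%, 36.3% and 8.0% of all genes. Hpn, the membrane protease hepsin, had an LXR peak in all 3 WT lists. It was covered at 64.3% with GW3965 and 98.2% with T09, and at 0% with GW4064 in either genotype, as Serpina3k was covered with the LXR agonists and not with GW4064. Masp2 was covered at 53.8% with T09 and 17.4% with GW3965, and Prtn3 at 75.3% in Foxa2-KO liver with GW4064 and 0% in the other comparisons.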

How the data were processed

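The study profiled mouse liver by ChIP-seq, ATAC-seq and RNA-seq in 106 samples of 45 groups. The 27 peak lists were used. The 37 RNA-seq samples and 8 ATAC-seq samples of Foxa2-KO liver with LXR agonists or their vehicles were not analysed here. The submitters' processing notes name mm10, BWA, STAR, RSEM and edgeR without versions or roles, and peaks were called with PeakSeq against input, or ligand against vehicle for ATAC-seq, per the series text, which names the WT comparisons only for ATAC-seq and gives 3 Foxa2 and 4 LXR replicates. A q-value per peak, the authors' own, is part of 19 deposited lists. The fold, a ratio over control, is the authors' own as deposited. The -log10 of p in some lists was deposited by the authors and not used here. The 8 lists without q (Foxa2, WT FXR and WT GW4064 ATAC) were read in the order of their entries, which was taken as their ranking, and "entry" means this place. Blank rows of the Foxa2-KO FXR lists (28147 and 7254) were skipped. The depth of the libraries is unknown from these lists.

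Gene bodies came from RefSeq (GRCm38.p6). Peaks were read 1-based, assigned by centre within 10 kb, and called overlapping from 1 shared base. Percents of all 21887 genes are the background, without matching for length. Promoters were at hand for 53 members, and Serpina1 copies were aligned pairwise with free ends (biopython 1.88). No test was run, since each group is 1 list. Named were the first 12 members by number of ChIP lists, the 10 with the largest ATAC-seq cover and each member with a receptor peak (45 in all). The result of 1 member is not reported here by name. Further members were named from their sites, after their values were seen. The members and lists were chosen with earlier results of these data known. Python 3.11.15, numpy 2.4.6 and pandas 2.3.3 were used, and the counting steps were tested on simulated data.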

Additional observations from a re-analysis of the deposited data

How the results depend on the processing

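No paired analysis was possible because each group is 1 list and the lists carry no replicate. For the same reason no replicate could be left out. With q at most 0.01, or the first 1000 entries of lists without q, the members with a Foxa2 peak fell from 38 to 7, all 7 in the Serpina cluster, while 5.6% of all genes had one, and those with an FXR, LXR or PPAR peak fell to 0 in both genotypes (4.56% of all genes for FXR and 0.603% for LXR in WT liver). The limit was by entry for Foxa2 and WT FXR and by q for the other ChIP lists, so it does not compare the antibodies. With 50 kb the counts were 35 for FXR in WT and 8 in Foxa2-KO liver, 41 and 21 for LXR, and 13 and 22 for PPAR, against 65.6% of all genes for FXR and 61.5% for LXR in WT liver. With 5 kb the share of members with a Foxa2 peak went from above to below that of all genes (46.8% against 48.7%). At 5 kb FXR in Foxa2-KO liver counted 1. Without peaks of 20 bp or less PPAR in Foxa2-KO liver counted 5. For PPAR and for the ChIP lists of Foxa2-KO liver the share of all genes was not computed under these changed settings. Their changes therefore cannot be set beside those of all genes. A 10% cover limit gave 3 members with GW3965, 5 with T09, 1 with GW4064 in WT and 2 in Foxa2-KO liver. For these counts the cause was not tested beyond what each setting takes away or adds. Peaks in the 102 regions found with all 4 antibodies did not touch the family: no member lay within 10 kb of one. Counting Serpina7 with the cluster (chosen after seeing the data) gave 18 of 24 with a Foxa2 peak, and 1 covered with GW3965.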

Other observations

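The region gained with T09 that ranked highest near the family lay at no protein-coding serpin. In the authors' deposited table chr12:104084474-104090675 was entry 8 of 60868 with T09, with a fold of 3.205 and q = 2.14e-219. It lies in the 54.9 kb between Serpina12 and Serpina5, over part of the pseudogene Serpina4-ps1 (chr12:104077959-104086920), and ends 8638 bp before the Serpina5 body. Its centre, 11739 bp from that body, is outside the 10 kb used for the counts. The interval held 9 regions gained with T09, 0 with GW3965, 1 with GW4064 in WT liver and 1 in Foxa2-KO liver. It held 3 Foxa2 peaks with GW3965, at entry 11994 and later, and 0 in the other 4 Foxa2 lists. No FXR or LXR peak of any list was found in it, and 1 PPAR peak, of Foxa2-KO liver with vehicle. This was chosen after its values were seen. Transcripts of Serpina4-ps1 were not analysed here.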
